A study of Mus musculus with 12 samples.

Results

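T and NK cell genes were followed as a set of 35 genes, chosen by name from the 54532 genes of the deposited tables. The set holds the CD3 chains and coreceptors of T cells, the adhesion and costimulatory receptors, the kinases that start T cell receptor signalling, cytokine receptors, Foxp3 with the checkpoint genes, the effector genes of cytotoxic cells with 2 of their transcription factors, and 2 receptors of NK cells. All 35 were found. RNA-seq was run on 12 mammary tumors of female MMTV-neu mice, in which the MMTV promoter drives wild-type Neu in the mammary epithelium. The control group (n = 4) ate powdered chow that carried only the vehicle, ethanol and Neobee oil. The second group (n = 4) received MSU-42011 and the third (n = 4) bexarotene, each at 100 mg/kg diet and each for 10 days. All mice carried the same transgene, no normal mammary tissue was among the groups, and feeding started at a tumor diameter of 4 mm. MSU-42011 and bexarotene are agonists of the retinoid X receptor (RXR), a nuclear receptor, and the design asks how tumors that received each agonist differ from control tumors and from each other. Each tumor has a tag of its own in the labels, and the study describes as many mice as tumors in each group.

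T cells recognise antigen with a receptor whose signal passes through the CD3 chains. The coreceptors CD4 and CD8 bind MHC molecules and bring the kinase Lck to the receptor, which then engages Zap70. Killing by CD8 T cells and NK cells relies on perforin and granzymes, while PD-1, CTLA-4, LAG-3, TIM-3 and TIGIT restrain activated cells. In mouse mammary tumors, these cells lie among a far larger mass of epithelium and macrophages, and the RNA of the tissue is measured as a mixture. Fewer T cells and less RNA per T cell cannot be told apart in such samples.

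The upstream sequences of 3 members are shown because each bears on the measured genes: Cd3e marks T cells, Gzmb had the most reads of the effector genes, and Havcr2 had the most reads of all members and holds an RXR half-site. They come from RefSeq on GRCm38.p6 and run 5′ to 3′ on the strand of the gene up to the base before its RefSeq start (for Cd3e, before the start in the deposited tables), over chr9:45009628-45009861 (minus strand) for Cd3e, chr14:56262335-56262584 (minus strand) for Gzmb and chr11:46454681-46454930 (plus strand) for Havcr2. Capitals mark every AGGTCA (the half-site bound by RXR and its partners), TGTGGT (the core letters of RUNX sites) and AGGAAG (core letters of ETS sites), searched on both strands, and none of the matches overlapped another.
Cd3e: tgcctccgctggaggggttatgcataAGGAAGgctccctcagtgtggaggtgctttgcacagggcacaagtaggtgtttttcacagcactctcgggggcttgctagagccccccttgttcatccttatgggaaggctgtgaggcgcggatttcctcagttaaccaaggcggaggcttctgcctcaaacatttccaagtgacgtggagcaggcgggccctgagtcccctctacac
Gzmb: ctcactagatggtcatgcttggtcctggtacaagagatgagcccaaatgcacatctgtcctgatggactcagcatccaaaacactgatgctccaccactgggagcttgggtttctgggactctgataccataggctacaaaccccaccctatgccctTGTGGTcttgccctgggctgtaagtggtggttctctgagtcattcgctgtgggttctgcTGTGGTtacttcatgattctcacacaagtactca
Havcr2: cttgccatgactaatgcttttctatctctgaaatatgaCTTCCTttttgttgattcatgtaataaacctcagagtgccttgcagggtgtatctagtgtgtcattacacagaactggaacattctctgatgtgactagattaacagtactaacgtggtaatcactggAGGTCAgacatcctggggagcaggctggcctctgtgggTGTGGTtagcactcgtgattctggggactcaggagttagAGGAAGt

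Upstream windows of 250 bases were present for 27 of the 35 members, as 32 entries. AGGTCA stood in 6 of these 32 entries, those of Foxp3, Havcr2, Ncr1, Pdcd1 and Zap70, against 14% of all 32841 windows. TGTGGT was found in 11 of the 32 entries, those of Gzma, Gzmb, Prf1, Nkg7, Ncr1, Klrk1, Tigit, Lck, Zap70 and Havcr2, against 14% of all windows. AGGAAG was found in 17 of the 32 entries against 29.5% of all windows. These matches describe letters in the windows and no binding was measured.

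Reads of T cell genes were present in every tumor at low levels. Total counts ran from 16583413 to 25925027 per tumor, and all 35 members together drew 7668 counts over the 12 tumors. Cd3e, a CD3 chain found on all mature T cells, had 5 to 32 counts per tumor, and Cd8a, the coreceptor of cytotoxic T cells, had 13 to 72. Constant region genes of the T cell receptor, which are not members, also had reads: Trbc2 ranged from 0 to 43 counts per tumor and Trac from 1 to 22. By contrast, the epithelial gene Epcam had 28948 to 55433 counts per tumor. The lymph node chemokines Ccl19 and Ccl21a had no count in any tumor, a value that is uncertain because the tables hold further copies of both genes.

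Near the detection floor, taken as 3 counts (0.111 to 0.184 normalised CPM, counts scaled to a common library size, depending on the tumor), lay a large share of the set. In 13 members every tumor was above the floor, while 15 members were at or below it in at least 6 of the 12 tumors. Gzmk, a granzyme of memory-like T cells, had no count in any tumor. Ctla4 and Ifng were at or below 3 counts in 11 tumors, with totals of 11 counts each. Foxp3 (21 counts in all) and Icos (23) were at or below the floor in 10 tumors, Eomes (22) in 9, Pdcd1 (38) in 8, and Cd5, Cd28, Il2ra and Klrk1 in 7. Cd247, Prf1, Tbx21 and Ncr1 were there in 6 tumors, Cd2 in 5, Cd6 and Tigit in 4 and Gzma in 3. These 19 members did not pass edgeR's filter on low counts, and the 16 others entered the tests with 15504 genes in all. Of those 16, Cd3d was at or below the floor in 1 tumor, and Zap70 and Il7r in 2.

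Per length, the members spanned a wide range. Cd27, a costimulatory receptor of T, NK and some B cells, had the highest mean over the 12 tumors at 2.63 FPKM, followed by Gzmb at 2.55 FPKM, Havcr2 at 1.78 FPKM and Nkg7 at 1.65 FPKM. Cd3e was at 0.863 FPKM, above 53.7% of the 29880 genes with a count. Regulatory T cell and checkpoint genes fell at both ends of this range, as Foxp3 had the lowest mean of the members with a count (0.0219 FPKM) and Lag3 reached 1.53 FPKM.

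**Figure D1:**
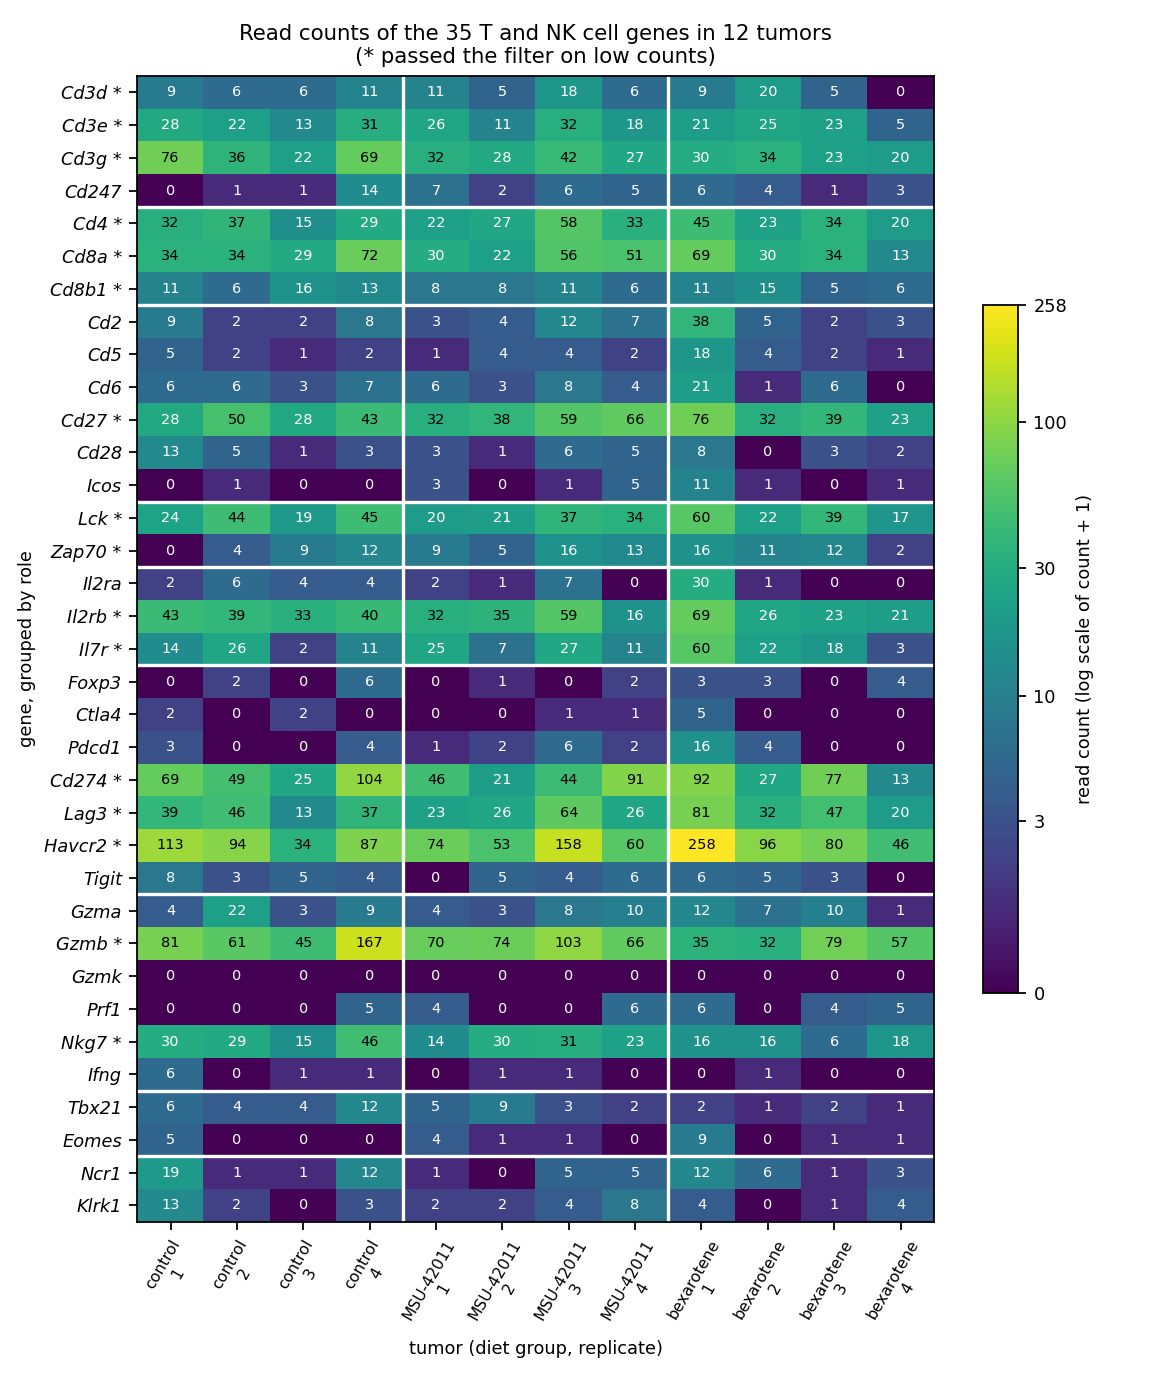
Read counts (colour on a log scale of count + 1, number printed in each cell) of the 35 members, in rows by role, for the 12 tumors in columns. Gzmk has no count in any tumor, Havcr2 reaches 258 counts in bexarotene replicate 1, and the 16 starred genes passed the filter on low counts.

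No member differed between groups by the main test. With edgeR's quasi-likelihood test, 0 of 16 tested members passed an adjusted p of 0.05 in MSU-42011 against control, where 0% of the 15504 genes passed. The same counts held for bexarotene against control, with 0 of 16 members and 0% of genes, and for MSU-42011 against bexarotene, with 0 of 16 members and 0% of genes. At an unadjusted p under 0.05, 309, 998 and 612 genes passed in these 3 comparisons. DESeq2 at its default settings called 1, 6 and 25 genes, and 9, 7 and 44 once its Cook's distance filter was switched off, none of them a member in any comparison. limma on the FPKM values called 0 genes. In the test among the 3 groups, 0 of 16 members reached an unadjusted p under 0.05 against 4.24% of all genes.

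One tumor stood apart from the others. Bexarotene replicate 1 had a median correlation of 0.915 with the other tumors, compared with 0.961 or more for the rest. Its summed level of 12 macrophage markers was 2430 normalised CPM, while the other 11 tumors ranged from 297 to 865. For 7 fibroblast markers, its sum was 10450 normalised CPM against 90.4 to 810 elsewhere. This tumor also had the highest level of 11 members, 8 of which did not pass the filter. The other 3 are tested members, and 19.1% of all tested genes were highest in this tumor. No such share was computed for genes that did not pass. Its total of 25925027 counts was the largest of all tumors. Where leaving bexarotene replicate 1 out moved a printed log2 fold change by over 1.5 times or turned its sign, the value without it is given as well.

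The 3 tested CD3 chains had negative log2 fold changes with bexarotene, and none passed the adjusted test. For Cd3e and Cd3g the sign was the same in every alternative fit. Cd3d, at -0.05, turned positive when control replicate 1 or 4 or bexarotene replicate 1, 3 or 4 was left out. The value of Cd3d was 0.027 without bexarotene replicate 1 and at most 0.32 over these omissions. Positions are those of the deposited tables, which match GENCODE M21 on GRCm38 for these genes. The counts of Cd3e (ENSMUSG00000032093, chr9:44998740-45009627) were 28, 22, 13 and 31 in the control tumors, 26, 11, 32 and 18 with MSU-42011, and 21, 25, 23 and 5 with bexarotene. The 3 groups overlapped, and the lowest value was that of bexarotene replicate 4. Mean levels in normalised CPM were 1.18 ± 0.41 for control, 1.15 ± 0.52 for MSU-42011 and 0.847 ± 0.403 for bexarotene (SD, n = 4 each). The log2 fold change of Cd3e was -0.05 (SE 0.46, exact permutation p = 0.886) for MSU-42011 against control and -0.47 (SE 0.47, adjusted p = 0.914 by edgeR, exact permutation p = 0.343) for bexarotene against control, the latter -0.42 without bexarotene replicate 1.

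Cd3g (ENSMUSG00000002033, chr9:44969572-44980431), which lies 1.35 kb from Cd3d and 18.3 kb from Cd3e, had the smallest p of any tested member in bexarotene against control. Its counts were 76, 36, 22 and 69 in the control tumors, 32, 28, 42 and 27 with MSU-42011, and 30, 34, 23 and 20 with bexarotene. Control replicates 1 and 4 were above all other tumors, and control replicate 3 lay within the range of each treated group. Control replicate 2, at 1.70 normalised CPM, was within the MSU-42011 range but above every bexarotene tumor (highest 1.62). The log2 fold change was -1.03 (SE 0.40, 95% interval -1.91 to -0.15, unadjusted p = 0.0257, adjusted p = 0.762 by edgeR) for bexarotene against control, and the exact two-sided permutation test gave p = 0.0857. It was -0.59 (SE 0.40, exact permutation p = 0.371) for MSU-42011 against control. Without bexarotene replicate 1 the change with bexarotene was -0.96 (adjusted p = 0.978 by edgeR), and without control replicate 1, the tumor with 76 counts, it was -0.63 (adjusted p = 0.944 by edgeR). Cd3d had 0 to 20 counts and a log2 fold change of -0.05 (SE 0.76) with bexarotene, and Cd247, the zeta chain, had 0 to 14 counts and was not tested. Of the exon bases of Cd247, 56.4% also belong to Pou2f1 on the other strand, which had 2789 counts. Without a stated strand setting, reads of the 2 genes cannot be told apart over these shared bases.

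The coreceptors did not pass the test in any comparison. Cd8a (ENSMUSG00000053977, chr6:71373427-71379173) had 34, 34, 29 and 72 counts in the control tumors, 30, 22, 56 and 51 with MSU-42011, and 69, 30, 34 and 13 with bexarotene. Its levels were 2.07 ± 0.72 normalised CPM in control tumors, 2.04 ± 0.74 with MSU-42011 and 1.61 ± 0.72 with bexarotene (SD, n = 4 each), or 1.29 ± 0.44 without bexarotene replicate 1. The highest tumor of each group was at 3.10, 3.03 and 2.55 normalised CPM, the last being bexarotene replicate 1, after which the highest was at 1.65. Log2 fold changes of Cd8a against control were -0.02 (SE 0.39) with MSU-42011 and -0.36 (SE 0.40) with bexarotene, where it was -0.67 without bexarotene replicate 1. For Cd4, the coreceptor of helper and regulatory T cells that is also found on some myeloid cells, counts were 32, 37, 15 and 29 in the control tumors, 22, 27, 58 and 33 with MSU-42011, and 45, 23, 34 and 20 with bexarotene. Its fold change was 0.37 (SE 0.38, exact permutation p = 0.514) with MSU-42011 and -0.01 (SE 0.38, exact permutation p = 1.00) with bexarotene, on the log2 scale, and the latter was -0.10 without bexarotene replicate 1. Without MSU-42011 replicate 3, the tumor with 58 counts, the change of Cd4 with MSU-42011 was -0.016. Cd8b1, the beta chain of CD8, had 5 to 16 counts per tumor and fold changes against control of -0.41 (SE 0.46) with MSU-42011 and -0.43 (SE 0.46) with bexarotene, on the log2 scale.

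Among adhesion and costimulatory receptors, Cd27 was the only gene to pass the filter. It had 28, 50, 28 and 43 counts in the control tumors, 32, 38, 59 and 66 with MSU-42011, and 76, 32, 39 and 23 with bexarotene. The groups overlapped, with log2 fold changes of 0.44 (SE 0.30, exact permutation p = 0.143) for MSU-42011 against control and 0.39 (SE 0.30, exact permutation p = 0.229) for MSU-42011 against bexarotene, which was 0.64 without bexarotene replicate 1. Cd2, an adhesion receptor of T and NK cells, Cd5 and Cd6, which dampen T cell receptor signals, and Icos were each highest in bexarotene replicate 1. The counts there were 38, 18, 21 and 11, and in the other 11 tumors they ran from 2 to 12, from 1 to 5, from 0 to 8 and from 0 to 5. Cd28, the receptor of the costimulatory B7 ligands, was highest in control replicate 1 with 13 counts and had 0 to 8 elsewhere.

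Neither of the proximal kinases passed the test. Lck had 24, 44, 19 and 45 counts in the control tumors, 20, 21, 37 and 34 with MSU-42011, and 60, 22, 39 and 17 with bexarotene. Its log2 fold changes against control were -0.16 (SE 0.36) with MSU-42011 and -0.06 (SE 0.36) with bexarotene, or -0.28 without bexarotene replicate 1. Zap70 had 0, 4, 9 and 12 counts in the control tumors, 9, 5, 16 and 13 with MSU-42011, and 16, 11, 12 and 2 with bexarotene. The log2 fold change of Zap70 for MSU-42011 against control was 0.86 (SE 0.71, exact permutation p = 0.171), and 1 control tumor had no count.

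No cytokine receptor passed the test, and Il2ra was too sparse for it. Il2rb, the beta chain shared by the IL-2 and IL-15 receptors, had 33 to 43 counts in control tumors, 16 to 59 with MSU-42011 and 21 to 69 with bexarotene, where replicate 1 had the 69 and the others at most 26. Il7r, the alpha chain of the IL-7 receptor, ranged from 2 to 60 counts over all tumors, with log2 fold changes of 0.49 (SE 0.75) with MSU-42011 and 0.72 (SE 0.74) with bexarotene against control, which fell to 0.10 without bexarotene replicate 1. Il2ra, the alpha chain of the IL-2 receptor, had 30 counts in bexarotene replicate 1 and 0 to 7 in the other tumors, including 0, 1 and 0 in the other bexarotene tumors.

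**Figure D2:**
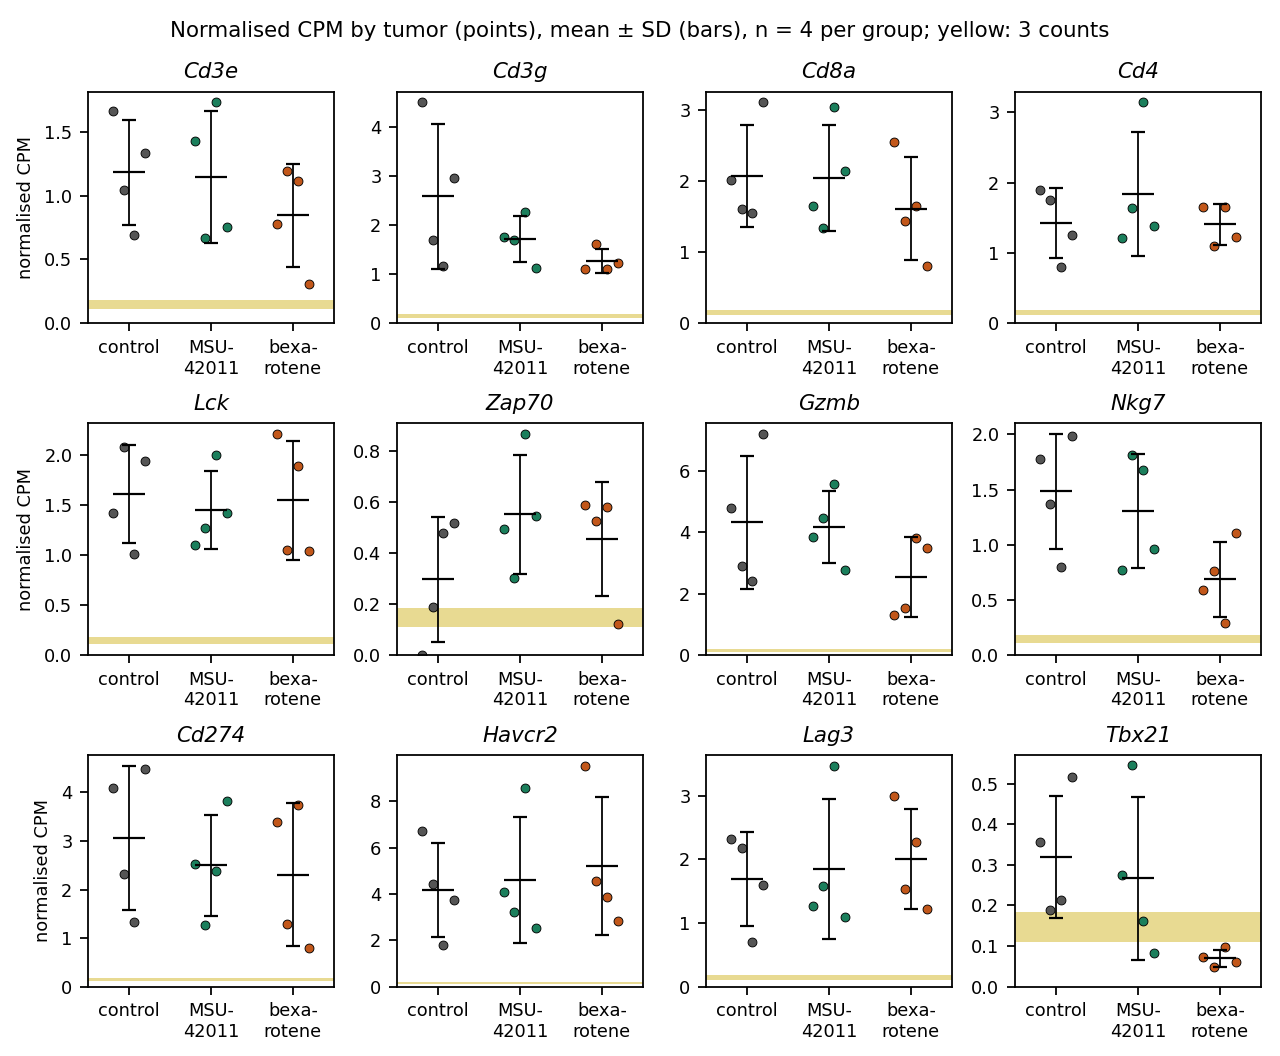
Normalised CPM of 12 members in each tumor (points, by diet group), with the mean and SD of each group (n = 4) and the level of 3 counts (yellow band, from 0.111 to 0.184 across tumors). The groups overlap in each panel except for Tbx21, whose bexarotene tumors lie below all control tumors and within or under the level of 3 counts.

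Of the checkpoint genes, Havcr2, Cd274 and Lag3 passed the filter on low counts, and none passed the test in any comparison. Havcr2 (ENSMUSG00000020399, chr11:46454935-46481255) encodes TIM-3, a receptor on exhausted T cells and on macrophages and dendritic cells. It had 113, 94, 34 and 87 counts in the control tumors, 74, 53, 158 and 60 with MSU-42011, and 258, 96, 80 and 46 with bexarotene. Bexarotene replicate 1 had the highest level, 9.52 normalised CPM, and MSU-42011 replicate 3 the next at 8.56, and these 2 tumors also had the highest macrophage sums, 2430 and 865 normalised CPM. The part of the macrophages in this level was not tested. The log2 fold changes of Havcr2 were 0.13 (SE 0.50) for MSU-42011 and 0.32 (SE 0.49) for bexarotene against control, and without bexarotene replicate 1 the latter was -0.15.

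Cd274 encodes PD-L1, the ligand of PD-1, which tumor cells and macrophages can also make. Its counts were 69, 49, 25 and 104 in the control tumors, 46, 21, 44 and 91 with MSU-42011, and 92, 27, 77 and 13 with bexarotene. The highest tumor of the control, MSU-42011 and bexarotene groups was at 4.48, 3.81 and 3.73 normalised CPM and the lowest at 1.34, 1.27 and 0.797, so the groups overlapped nearly in full. Log2 fold changes against control were -0.29 (SE 0.53) with MSU-42011 and -0.40 (SE 0.53) with bexarotene, or -0.65 without bexarotene replicate 1. Of its exon bases, 14.1% belong to an antisense gene as well. Lag3, an inhibitory receptor that binds MHC class II, had 13 to 46 counts in control tumors, 23 to 64 with MSU-42011 and 20 to 81 with bexarotene, where replicate 1 had the 81 and the others at most 47.

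The remaining checkpoint genes were too sparse for a test. Foxp3, the transcription factor of regulatory T cells, had 0, 2, 0 and 6 counts in the control tumors, 0, 1, 0 and 2 with MSU-42011, and 3, 3, 0 and 4 with bexarotene. Pdcd1, which encodes PD-1, had 3, 0, 0 and 4 counts in the control tumors, 1, 2, 6 and 2 with MSU-42011, and 16, 4, 0 and 0 with bexarotene. Ctla4 had 2, 0, 2 and 0 counts in the control tumors, 0, 0, 1 and 1 with MSU-42011, and 5, 0, 0 and 0 with bexarotene. Each of the 3 groups had tumors with 0 counts of Foxp3 and of Ctla4, and 16 of the 20 Pdcd1 counts with bexarotene came from replicate 1. Tigit had 0 to 8 counts per tumor. Exon bases of Foxp3 are shared with Flicr on the same strand (18.6%), which had 22 counts in all. On the other strand they are shared with Ccdc22 (12.9%, 1 count), Gm36995 (8.15%, 85 counts) and Ppp1r3f (5.81%, 158 counts).

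Of the cytotoxic effectors, Gzmb and Nkg7 were tested and neither passed the adjusted test. Gzmb (ENSMUSG00000015437, chr14:56258838-56262260), a granzyme that triggers apoptosis of target cells, had 81, 61, 45 and 167 counts in the control tumors, 70, 74, 103 and 66 with MSU-42011, and 35, 32, 79 and 57 with bexarotene. The mean level was 4.32 ± 2.18 normalised CPM in control tumors, 4.17 ± 1.18 with MSU-42011 and 2.53 ± 1.31 with bexarotene (SD, n = 4 each). Bexarotene replicates 1 and 2 were below all other tumors, and replicates 3 and 4 were inside the range of both other groups. The log2 fold change of Gzmb was -0.06 (SE 0.44, exact permutation p = 0.971) for MSU-42011 against control, -0.78 (SE 0.44, adjusted p = 0.846 by edgeR, exact permutation p = 0.200) for bexarotene against control and 0.72 (SE 0.44, exact permutation p = 0.143) between MSU-42011 and bexarotene. The last 2 values were -0.56 and 0.50 without bexarotene replicate 1.

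Nkg7 (ENSMUSG00000004612, chr7:43437073-43438249), a protein of cytotoxic granules, had 30, 29, 15 and 46 counts in the control tumors, 14, 30, 31 and 23 with MSU-42011, and 16, 16, 6 and 18 with bexarotene. The group means of Nkg7 in normalised CPM were 1.48 ± 0.52 (control), 1.31 ± 0.52 (MSU-42011) and 0.687 ± 0.340 (bexarotene). Of the bexarotene tumors, 3 of 4 were below every control tumor, and replicate 4 was not. For bexarotene against control the log2 fold change was -1.12 (SE 0.45, 95% interval -2.11 to -0.13, unadjusted p = 0.0296, adjusted p = 0.762 by edgeR), with an exact two-sided permutation p of 0.0571. Without bexarotene replicate 1 it was -1.06 (adjusted p = 0.978 by edgeR). For MSU-42011 against control it was -0.19 (SE 0.44, exact permutation p = 0.686).

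Cd3g and Nkg7 were the only tested members with an unadjusted p under 0.05 in any comparison, both lower in bexarotene against control, which makes 2 of 16 beside 1.96% of all genes, while 0 of 16 were higher beside 4.48% of all genes. Neither change passed the adjustment over 15504 genes. In the other comparisons, 0 of 16 members reached this level. There, 1.14% of all genes did so as higher and 0.851% as lower in MSU-42011 against control, and between MSU-42011 and bexarotene the shares were 0.819% and 3.13%. Without bexarotene replicate 1, or without control replicate 1 or 4, 0 of 16 members were below 0.05 in bexarotene against control.

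Other effectors were sparse. Prf1, which encodes perforin, had 0, 0, 0 and 5 counts in the control tumors, 4, 0, 0 and 6 with MSU-42011, and 6, 0, 4 and 5 with bexarotene, so that 6 of the 12 tumors had none. Gzma had 3 to 22 counts in control tumors, 3 to 10 with MSU-42011 and 1 to 12 with bexarotene. Ifng, the main cytokine of these cells, had 6 counts in control replicate 1 and 0 or 1 in each of the other 11 tumors. For Gzmk, a count of 0 in a single tumor leaves room for a level up to about the floor of 3 counts, which covers counting error only. No limit over all tumors together was computed.

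Tbx21 (ENSMUSG00000001444, chr11:97098071-97115331), which encodes T-bet, the factor that directs type 1 helper, cytotoxic and NK cell programs, was the only member whose groups did not overlap in any comparison. Its counts were 6, 4, 4 and 12 in the control tumors, 5, 9, 3 and 2 with MSU-42011, and 2, 1, 2 and 1 with bexarotene. All 4 bexarotene tumors were under all 4 control tumors, with 6 counts in the group against 26, and all 4 were at or below the floor. Normalised levels of Tbx21 averaged 0.319 ± 0.151 CPM (control), 0.267 ± 0.202 CPM (MSU-42011) and 0.0699 ± 0.0209 CPM (bexarotene). The spread of Tbx21 about its group means was 1.57 times that of counting alone. In the fit without a filter, the log2 fold change was -2.11 (SE 0.78, adjusted p = 0.688 by edgeR) for bexarotene against control. The same fit gave 1.83 (SE 0.79, adjusted p = 0.792 by edgeR) for MSU-42011 against bexarotene. As Tbx21 is described here because its groups did not overlap, no test of single values is given for it. That 1 of 34 members with a count did not overlap stands beside 1.6% of the 29880 genes with a count. In MSU-42011 against control it was 0 of 34 members beside 1.57% of genes, and in MSU-42011 against bexarotene 0 of 34 beside 1.04%. Eomes, the related factor, had 5 counts in control replicate 1 and 9 in bexarotene replicate 1, and 0 to 4 elsewhere.

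NK cell receptors varied among tumors of the same group. Ncr1, which encodes NKp46, a receptor found almost only on NK and innate lymphoid cells, had 19, 1, 1 and 12 counts in the control tumors, 1, 0, 5 and 5 with MSU-42011, and 12, 6, 1 and 3 with bexarotene. Klrk1, which encodes NKG2D, had 13, 2, 0 and 3 counts in the control tumors, 2, 2, 4 and 8 with MSU-42011, and 4, 0, 1 and 4 with bexarotene. Both were highest in control replicate 1. Neither passed the filter.

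Considered as a set, 7 of the 16 tested members had a positive fold change in MSU-42011 against control, and their median on the log2 scale was -0.03 against 0.00 over all genes tested. With 1 tumor left out this median ran from -0.30, without MSU-42011 replicate 3, to 0.18, without MSU-42011 replicate 4, so its sign rests on single tumors. In bexarotene against control 5 of 16 were positive, with a median of -0.20 against 0.03, and the values ran from -1.12 for Nkg7 to 0.72 for Il7r. Without bexarotene replicate 1 this median was -0.34 and 3 of 16 were positive, and without bexarotene replicate 4 it was 0.04. The tested CD3 chains, coreceptors and effectors had negative values with bexarotene, where those of Cd3d and Cd4 turned sign with 1 tumor left out and Cd4 also on FPKM. Cd27, Zap70, Il7r, Lag3 and Havcr2 had positive ones, of which Cd27, Lag3 and Havcr2 turned negative without bexarotene replicate 1. Lck, Il2rb and Cd274, which share their roles with some of these, had negative values of -0.06, -0.34 and -0.40, or -0.28, -0.70 and -0.65 without that tumor. The difference between roles was not tested. The summed level of all 35 members was 33.0 ± 10.9 normalised CPM in control tumors, 32.5 ± 10.6 with MSU-42011 and 28.5 ± 10.1 with bexarotene (SD, n = 4 each), or 23.8 ± 4.5 in the 3 bexarotene tumors other than replicate 1.

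**Figure D3:**
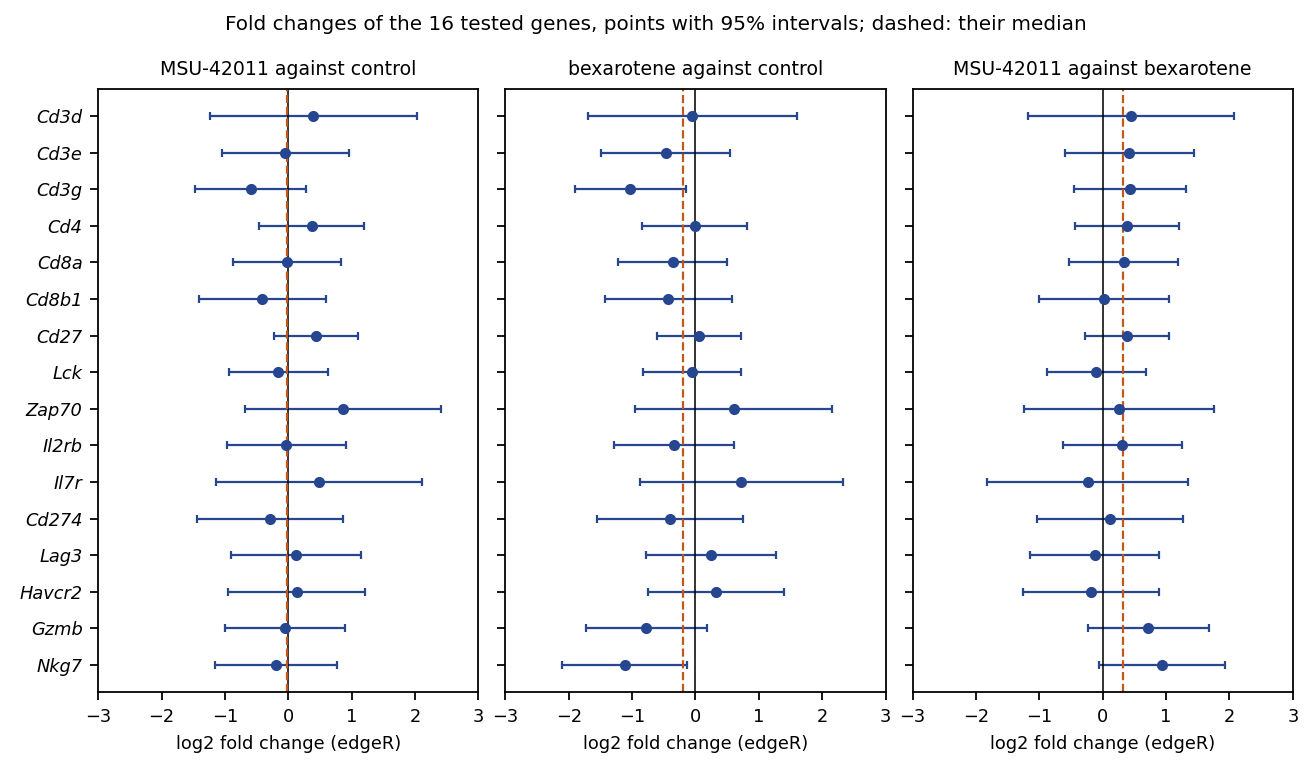
Log2 fold changes of the 16 tested members from edgeR (points) with 95% intervals (bars) in the 3 comparisons, and the median of the 16 (dashed line). The intervals of Cd3g and Nkg7 in bexarotene against control are the only ones that leave out 0.

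MSU-42011 and bexarotene, both RXR agonists, were compared at the same dose and time, as 1 pair. Of the 16 tested members, 12 had a positive value for MSU-42011 against bexarotene, with a median log2 difference of 0.32 beside -0.02 over all genes, and none passed the test (smallest adjusted p of a member 0.997 by edgeR). The largest difference was that of Nkg7, 0.93 (SE 0.46, 95% interval -0.06 to 1.92, adjusted p = 0.997 by edgeR, exact permutation p = 0.114). For Cd3e the difference was 0.42 with a 95% interval from -0.59 to 1.44, and for Cd8a it was 0.34 with an interval from -0.52 to 1.20. These differences were 0.38 for Cd3e, 0.65 for Cd8a and 0.87 for Nkg7 without bexarotene replicate 1. The intervals of 15 of the 16 members held a change of 1 on the log2 scale in at least 1 direction, so a difference of 2-fold remained within the error for them. Without bexarotene replicate 1 the median was 0.38 and 15 of 16 were positive, and without MSU-42011 replicate 3 the median was -0.0080. This comparison shares its tumors with those against control.

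The tumor with the highest level was often the same for several members. Of the 16 tested members, 7 were highest in MSU-42011 replicate 3 (Cd3d, Cd3e, Cd4, Cd27, Zap70, Il2rb and Lag3), which was the highest tumor for 10.5% of all tested genes. Control replicate 4 was highest for 4 tested members (Cd8a, Cd274, Gzmb and Nkg7) and for 4.10% of genes. Bexarotene replicate 1 was highest for 3 (Lck, Il7r and Havcr2) and for 19.1% of genes. The spread within groups exceeded counting error for nearly all tested members. Relative to counting alone, the variance about the group means was 28.8 times as large for Havcr2, 15.2 for Gzmb and 13.4 for Cd274, and 3.5 for Cd3e. Cd8b1, at 1.63, was the only tested member under 2.

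Levels of Cd3e were set against 9 other members across the 12 tumors. Cd8a had the closest linear relation, with a Pearson r of 0.65 (permutation p = 0.0224, adjusted p = 0.188 over 9 relations) and a Spearman rho of 0.63 (permutation p = 0.0322, adjusted p = 0.145). Leaving out the 2 tumors farthest from the median of Cd3e, MSU-42011 replicate 3 and bexarotene replicate 4, the r with Cd8a was 0.21. This omission narrows the range of Cd3e, which by itself can lower r, so it cannot show what the relation rests on. The r with Cd8a was 0.74 without bexarotene replicate 1, the tumor that stands apart, and 0.60 after centring each group on its mean. Cd274 had an r of 0.59 (permutation p = 0.0453, adjusted p = 0.188) and rho of 0.55 (permutation p = 0.0705, adjusted p = 0.181), with an r of 0.43 after the same omission and of 0.65 without bexarotene replicate 1. For Havcr2 the r was 0.55 (permutation p = 0.0628, adjusted p = 0.188) and rho 0.66 (permutation p = 0.0245, adjusted p = 0.145), and the r was 0.39 without those 2 tumors and 0.78 without bexarotene replicate 1. Gzmb and Ncr1 had r of 0.38 and 0.41 (permutation p = 0.228 and 0.193, adjusted p = 0.293 and 0.290), with rho of 0.50 and 0.51 (permutation p = 0.10 and 0.092, adjusted p = 0.181 for both). Cd4 and Lck had r of 0.46 and 0.35 (permutation p = 0.128 and 0.261, adjusted p = 0.288 and 0.294), with rho of 0.38 and 0.34 (permutation p = 0.220 and 0.277, adjusted p = 0.282 and 0.288). Without the same 2 tumors, r fell to 0.19 with Cd4 and to 0.023 with Lck. It rose to 0.44 with Gzmb and to 0.53 with Ncr1. Foxp3 was the one with a negative r, -0.43 (permutation p = 0.163, adjusted p = 0.290; rho -0.33, permutation p = 0.288), which was 0.0054 without the 2 tumors. Pdcd1 had an r of 0.29 (permutation p = 0.359) and a rho of 0.47 (permutation p = 0.122, adjusted p = 0.182), and its r was -0.045 without the 2 tumors and 0.62 without bexarotene replicate 1. Foxp3, Pdcd1 and Ncr1 lay under the 0.5 CPM added in 10 to 12 tumors, which limits what their relations can show. No relation passed the adjustment.

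**Figure D4:**
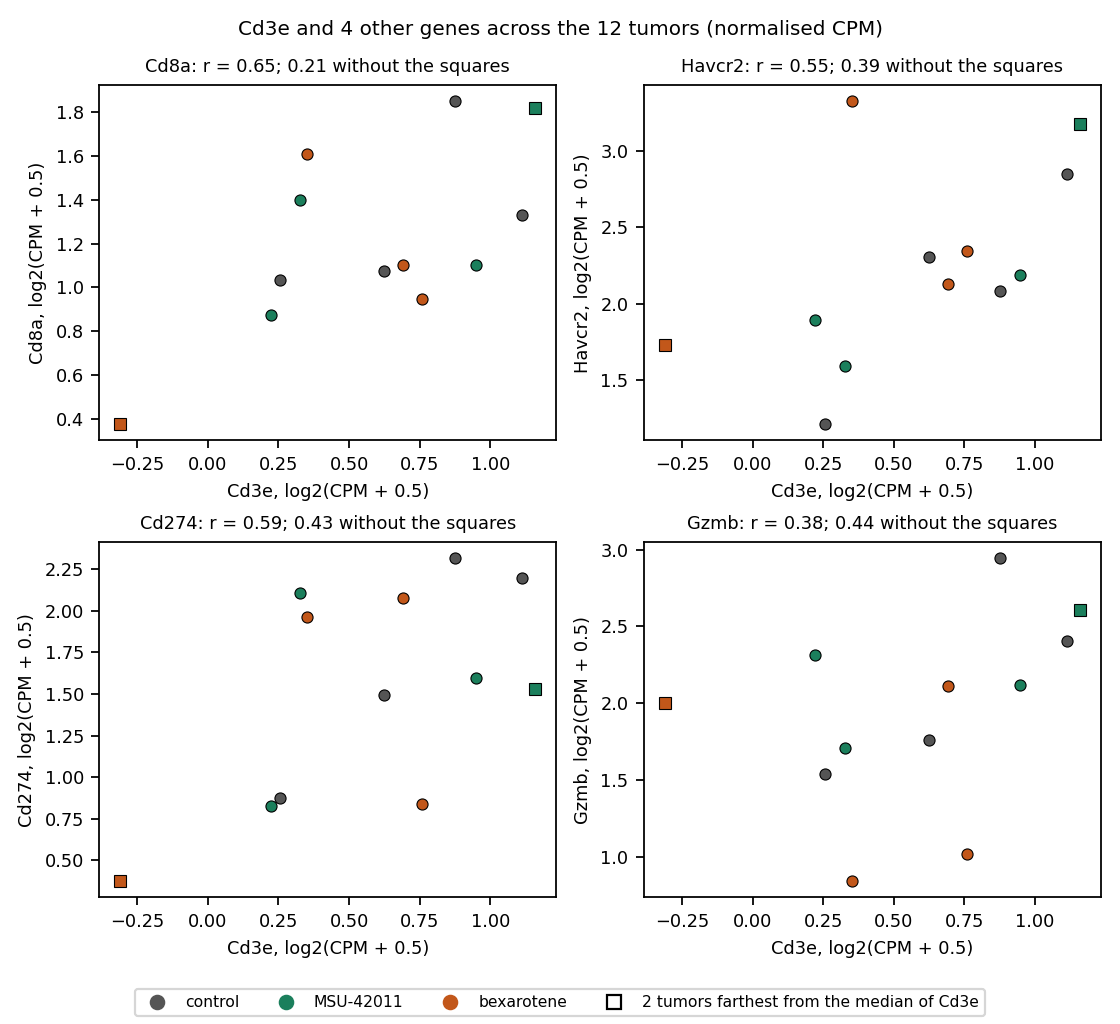
Log2 of normalised CPM plus 0.5 of Cd8a, Havcr2, Cd274 and Gzmb (vertical axes) against Cd3e (horizontal axes) in the 12 tumors, coloured by diet group. Squares mark MSU-42011 replicate 3 and bexarotene replicate 4, without which the r with Cd8a falls from 0.65 to 0.21.

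Ratios between members were also compared within each tumor. The log2 ratio of Cd8a to Cd4 reads was 0.42 ± 0.53 in control tumors, 0.14 ± 0.33 with MSU-42011 and 0.09 ± 0.39 with bexarotene (SD, n = 4 each; -0.046 without bexarotene replicate 1), with exact permutation p of 0.400 and 0.371 against control. Gzmb per Cd3e had a log2 ratio of 1.45 ± 0.42 in control tumors, 1.52 ± 0.40 with MSU-42011 and 1.12 ± 0.94 with bexarotene, a difference of -0.33 from control. The differences of bexarotene from control, leaving out bexarotene replicate 1, were -0.46 for Cd8a to Cd4 and -0.12 for Gzmb to Cd3e. Other single tumors also weighed on these differences. Gzmb to Cd3e ran from 0.26 in bexarotene replicate 2 to 2.31 in bexarotene replicate 4. In bexarotene replicate 4 Cd3e was at 0.307 normalised CPM, under the 0.5 CPM added. The ratio of Gzmb to Cd3e there, and with it the bexarotene mean and SD, therefore depends on the CPM added. Cd8a to Cd4 was highest among control tumors in replicate 4, at 1.04. Foxp3 was under 0.5 normalised CPM in 12 of 12 tumors, Pdcd1 in 11 and Ncr1 in 10, so that their ratios to Cd3e depend on the 0.5 CPM added and are not read as results. Over the 15 ratio tests run, these included, the smallest adjusted p was 0.714.

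Other genes of the same pathways were counted in 4 lists. Of 20 other T cell receptor signalling genes, 12 were tested and 0 passed in any comparison. Ubash3a, a negative regulator of T cell receptor signals, had a log2 fold change of 1.01 (SE 0.50, adjusted p = 0.997 by edgeR) for MSU-42011 against bexarotene and 0.82 (SE 0.50) for MSU-42011 against control. The median of the list was 0.19 for MSU-42011 and 0.35 for bexarotene against control, against 0.00 and 0.03 over all genes, and the median for bexarotene was -0.14 without bexarotene replicate 1. Between the agonists 3 of 12 were positive (median -0.21, or 0.30 without it), and 8 of 12 were so in each comparison against control. The summed level of the list was 78.2 normalised CPM in bexarotene replicate 1 and 28.0 to 34.5 in the other 3 bexarotene tumors, with 29.2 to 43.5 in control tumors.

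Of 25 other T cell subset genes, 12 were tested, and 1 was lower at an unadjusted p under 0.05 in bexarotene against control, beside 1.96% of all genes, while 0 were so in the other comparisons. Lef1, a transcription factor of naive T cells that epithelial cells also use, had 166, 271, 168 and 275 counts in the control tumors, 92, 167, 105 and 242 with MSU-42011, and 174, 182, 30 and 85 with bexarotene. Its log2 fold change was -0.998 (SE 0.43, unadjusted p = 0.0374, adjusted p = 0.762 by edgeR) for bexarotene against control. Tnfrsf4, the costimulatory receptor OX40, had -0.93 (SE 0.57) for MSU-42011 against control, and Il4, a cytokine of type 2 helper cells, had -0.59 (SE 0.30, adjusted p = 0.997 by edgeR) for MSU-42011 against bexarotene. In each comparison 6 of the 12 were positive, and the medians were 0.05 with MSU-42011 and 0.06 with bexarotene (-0.10 without bexarotene replicate 1), each against control, and 0.01 between the agonists (0.18 without it). Il2, Il13, Il17a, Il21 and Cd40lg never exceeded 3 counts in a tumor.

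Of 28 other NK and cytotoxic genes, 6 were tested. Positive log2 fold changes were found for 6 of 6 in MSU-42011 against control (median 0.49, against 0.00 over all genes), for 4 of 6 in bexarotene against control (median 0.12 against 0.03, or 0.22 without bexarotene replicate 1) and for 6 of 6 between MSU-42011 and bexarotene (median 0.35 against -0.02). None passed the test. Cd96, a receptor of T and NK cells that binds nectin-like ligands, had the smallest p, with a log2 fold change of 0.86 (SE 0.41, adjusted p = 1.00 by edgeR), and its difference between MSU-42011 and bexarotene was 0.57 (SE 0.41). In bexarotene against control Gzmm, a further granzyme, led with 0.59 (SE 0.75, adjusted p = 0.935 by edgeR), or 0.94 without bexarotene replicate 1. The NK cell receptors Klrb1c, Klre1, Klra1, Klra4 and Klra7 were among 11 genes of this list that never exceeded 3 counts in a tumor, and the counts of the Klra genes, which are close paralogs, are uncertain.

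Of 17 other checkpoint genes, 14 were tested and 0 passed. Of the 14, 6 were positive in MSU-42011 against control (median -0.03), 9 in bexarotene against control (median 0.30, or -0.19 without bexarotene replicate 1) and 6 between the agonists (median -0.13, or 0.19 without that tumor). Nt5e, the ectoenzyme CD73 that makes adenosine, led in MSU-42011 against control at 1.24 (SE 0.70, adjusted p = 1.00 by edgeR). Btla, an inhibitory receptor of B and T cells, had a log2 fold change of 0.95 (SE 0.47, adjusted p = 0.800 by edgeR) for bexarotene against control, which was 0.47 without bexarotene replicate 1. Cd80, a B7 ligand of antigen presenting cells, was -1.14 (SE 0.62, adjusted p = 0.997 by edgeR) for MSU-42011 against bexarotene, or -0.56 without the same tumor.

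Markers of other cells were read beside these values. The 12 macrophage markers summed to 299 to 788 normalised CPM in control tumors, 380 to 865 with MSU-42011 and 297 to 2430 with bexarotene, or up to 609 without replicate 1. The 6 dendritic cell markers summed to 6.09 to 20.9, 10.3 to 15.1 and 5.58 to 24.9 normalised CPM in the same order, with a highest bexarotene sum of 9.68 without replicate 1. The 7 B cell markers summed to 1.55 to 4.17, 1.59 to 5.15 and 0.981 to 5.39, the last up to 3.43 without that tumor. The 7 lymph node markers summed to 0.356 to 0.710, 0.217 to 0.485 and 0.387 to 2.14, and without bexarotene replicate 1 no bexarotene tumor was above 0.490. The 6 markers of tumor epithelium ranged from 4287 to 5464, from 3988 to 4667 and from 2683 to 5097, with the lowest sum in bexarotene replicate 1 and 4204 as the lowest of the other bexarotene tumors. In bexarotene against control 5 of these 6 had negative log2 fold changes. Krt19 had 3.10 (SE 1.48, adjusted p = 0.790 by edgeR), or -0.16 without bexarotene replicate 1. The part of these other cells in the values of the T and NK cell genes was not tested.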

How the data were processed

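RNA from 12 flash-frozen tumor sections (1 ug as input) was enriched for poly(A) RNA and sequenced by the company Novogene. Per the labels' processing notes, the authors used STAR 2.6.1d, featureCounts 1.5.0-p3 and DESeq2; the genome build and strand setting are not given in the sources used here. The coordinates of 33 of the 35 members are those of GENCODE M21 on GRCm38. The authors deposited raw read counts per gene and, in a second table, FPKM values, which are scaled by library size and gene length. All columns of both tables were used.

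Here, counts were normalised with edgeR 4.0.16 (TMM) in R 4.3.3, filtered with filterByExpr and tested with its quasi-likelihood test in 1 model with a mean per group. Adjustment followed Benjamini and Hochberg over the 15504 genes tested, with a threshold of 0.05. Single values and ratios used log2 of normalised CPM plus 0.5 and exact two-sided permutation tests, and relations across tumors 100000 permutations. Depth ran from 16583413 to 25925027 counts, and 3 counts were taken as the floor, which covers counting error only. Alternatives were DESeq2 1.42.0 with and without its Cook's distance filter, its size factors within edgeR, no filter, at least 10 counts in every tumor, the replicate number as a block, each tumor left out, 2 groups fitted alone, and limma 3.58.1 on log2 of FPKM plus 1 or 0.1. The edgeR fit was tested on simulated data.

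All 35 members are accounted for. Fold changes with errors are given for 12 members chosen by role (Cd3e, Cd8a, Cd4, Lck, Foxp3, Pdcd1, Ctla4, Cd274, Havcr2, Gzmb, Prf1 and Ncr1, where tested), for the 3 members with the smallest p in each comparison and for members whose groups do not overlap, and from each list of other pathway genes the gene with the smallest p, of which 1 is not reported here. Values of Cd3d, Cd8b1 and Il7r were added after they were seen. The members and lists were chosen with earlier results of these data known. Promoter sequences were read from RefSeq (GRCm38.p6).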

Additional observations from a re-analysis of the deposited data

Results flagged for a closer look

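In 3 of 48 sets of 4 tumors (16 tested members in 3 groups), 1 tumor lay far from the other 3, where chance alone flags about 1 in 20 sets. Zap70 was at 0.123 normalised CPM in bexarotene replicate 4, the lowest tumor of its group, which is 2 counts. Il2rb was at 2.55 normalised CPM in control replicate 1 and at 2.55 in bexarotene replicate 1, each the highest tumor of its group.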

How the results depend on the processing

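No member was called in any of the 22 alternatives of a comparison, and the smallest adjusted p of a member over all fits was 0.407 (bexarotene against control), 0.647 (between the agonists) and 0.948 (MSU-42011 against control). Low counts limit the set, since 19 of 35 members did not pass the filter. The cause of the low counts was not tested. The adjusted p of Cd3g in bexarotene against control ran from 0.407 to 0.978 and that of Nkg7 from 0.435 to 0.978, with log2 fold changes from -1.27 to -0.50 and from -1.43 to -0.63. Leaving out 1 control or bexarotene tumor, chosen as an alternative after seeing the data, gave differences of Tbx21 from -0.58 to -0.40 in mean log2 of normalised CPM plus 0.5, a scale on which the added 0.5 CPM exceeds most levels of this gene and shrinks its differences.

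DESeq2 called 1 gene in MSU-42011 against control, 6 in bexarotene against control, 25 in MSU-42011 against bexarotene and 5 among the 3 groups, and without its Cook's distance filter 9, 7, 44 and 11. With each tumor left out, 0 to 1 genes were called in bexarotene against control and among the 3 groups, the 1 gene in each case without MSU-42011 replicate 2. The median log2 fold change of the tested members for MSU-42011 against bexarotene then ran from -0.0080, without MSU-42011 replicate 3, to 0.43. The cause of these changes was not tested.

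Of the 28 fold changes of members chosen by role or by the 3 smallest p of a comparison, 16 kept their direction in every alternative and 12 did not. Fold changes outside this choice also turned, among them those of Cd3d, Cd27 and Lag3 in bexarotene against control. With each tumor left out, MSU-42011 against control ran from -0.32 to 0.15 for Cd3e, from -0.016 to 0.53 for Cd4, from -0.28 to 0.24 for Cd8a, from -0.36 to 0.45 for Havcr2 and from -0.25 to 0.31 for Gzmb. Bexarotene against control ran from -0.21 to 0.15 for Cd4, from -0.28 to 0.090 for Lck and from -0.15 to 0.64 for Havcr2. MSU-42011 against bexarotene ran from -0.0011 to 0.54 for Cd4, from -0.29 to 0.13 for Lck, from -0.16 to 0.44 for Cd274 and from -0.67 to 0.28 for Havcr2. The ratio of Cd8a to Cd4 ran from -0.12 to 0.18 between the agonists, Foxp3 to Cd3e from -0.26 to 0.13 and Gzmb to Cd3e from -0.11 to 0.29 for MSU-42011 against control, and Ncr1 to Cd3e from -0.066 to 0.37 for bexarotene against control, where Foxp3 and Ncr1 lay mostly under the 0.5 CPM added and the ratios are not read as results. On FPKM with limma, with 1 added and with or without the filter, the value for MSU-42011 against control was 0.00017 for Cd3e, 0.018 for Cd8a and 0.058 for Gzmb, and 0.028 for Cd4 with bexarotene. With 0.1 added it was 0.028 for Cd8a, 0.093 for Gzmb and 0.066 for Cd4 in the same comparisons. Without the 2 tumors farthest from the median of Cd3e, r was 0.0054 with Foxp3 and -0.045 with Pdcd1. Each of these values turned the sign of a result that had not passed its test.

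Tumors with the same replicate number did not deviate together, with correlations from -0.35 to 0.35 and 4 of 12 pairs over 0.1, so the numbers do not pair the samples. With the replicate number as a block, 0 genes were called in any comparison, the medians of the tested members were -0.02, -0.35 and 0.30, and Gzmb in MSU-42011 against control was 0.0062.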
